A study of Mus musculus with 12 samples.

Results

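The leader examined here is the stretch of the 5′ external transcribed spacer (5′ETS) of the mouse ribosomal RNA (rRNA) precursor that lies upstream of its primary cleavage site. Its members are positions 1 to 650 of the deposited 13400-position reference sequence, 4.85% of all positions, counted from 1 at the start of the reference. A narrow spike of depth at positions 414 to 449 (36 positions) is reported apart from the other 614 positions, which are called the leader without the spike. The bounds of the leader and of the spike were chosen by position, with the depth profile of these libraries already known. The rest of the 5′ETS, positions 651 to 4005, served as the nearest comparison.

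RNA polymerase I transcribes each rRNA gene into 1 long precursor that holds 18S, 5.8S and 28S rRNA between spacers. Cleavage inside the 5′ETS is among the earliest steps of maturation and depends on the U3 small nucleolar RNA and its partner proteins. The leader released by that cut is not part of any mature rRNA and is degraded by nuclear exonucleases, so it is usually scarce next to the spacer behind it. eIF3m is a subunit of eIF3, the factor that assembles on the small ribosomal subunit at the start of translation.

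RNA-seq libraries made without the rRNA removal step gave the depth along the precursor, 12 in all and 3 in each of 4 groups. Hepa1c1c7, an established mouse hepatoma line, was given the control siRNA (scrambled luciferase) or siRNA against Eif3m for 3 days at 10 uM, and its nuclear RNA was sequenced. In vivo, the livers were those of FVB/N mice aged 6 to 8 weeks, injected in the tail vein with 0.5 mg/kg of that control or Eif3m siRNA in lipid nanoparticles (LNP) and taken 13 days later, and RNA came from the frozen, ground tissue. The systems therefore differ at once in origin, in the RNA fraction taken, in dose and in duration. Libraries with Eif3m siRNA are called Eif3m cells and Eif3m livers. The labels number the libraries of a group but do not say whether they came from separate cultures, so the p-values measure only the spread between these libraries. The table holds no messenger RNA, so the level of Eif3m was not measured. In whole tissue, less RNA per cell and fewer cells with that RNA cannot be told apart.

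Depth is the number of reads over a position. Division by a library's summed depth over all positions put libraries on 1 scale, and the scaled depth is given in ppm of that sum (1000000 for the whole sum), for which an even profile would stand at 74.6 ppm at every position. The mean depth over all positions was 10462 to 15537 reads in cells and 26971 to 46799 reads in livers. No leader position had an empty entry in the deposited table. Reads that began inside the leader, counted as the sum of all gains in depth from one position to the next outside the spike and the 10 nt before it, numbered 549 to 1138 per library for control cells and 2627 to 3539 for Eif3m cells. For livers they numbered only 132 to 230 (controls) and 162 to 268 (Eif3m). A read that begins where another ends adds no gain, which lowers the count. A gap within a read adds a second gain, which raises it, so these counts are approximate. By this count the liver leader rests on fewer reads per library than that of the cells. The spread between libraries depended on the siRNA. With Eif3m siRNA the leader without the spike spread wider, relative to its mean, in livers than in cells. It stood at 0.0349 ± 0.0087 ppm in livers and 2.21 ± 0.20 ppm in cells (SD, n = 3 each). With control siRNA it spread wider in cells (0.663 ± 0.201 ppm) than in livers (0.0352 ± 0.0024 ppm). The log2 difference between siRNAs of the leader without the spike had an SE of 0.23 in liver and 0.28 in cells.

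The end of the leader was visible in every library. At position 650, the last inside, depth was 103 to 747 reads in cells and 11 to 30 reads in livers. At position 651, the first outside, it was 297 to 1475 reads in cells and 20 to 83 reads in livers. Depth thus rose 1.72- to 3.08-fold over this single step. In 12 of 12 libraries it was the largest relative rise between neighbouring positions within 50 nt of the end. Taken over 20 nt on each side, the largest rise lay at position 657 in control liver replicate 2. The end was chosen with these profiles known, so its recurrence is a description.

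**Figure D1:**
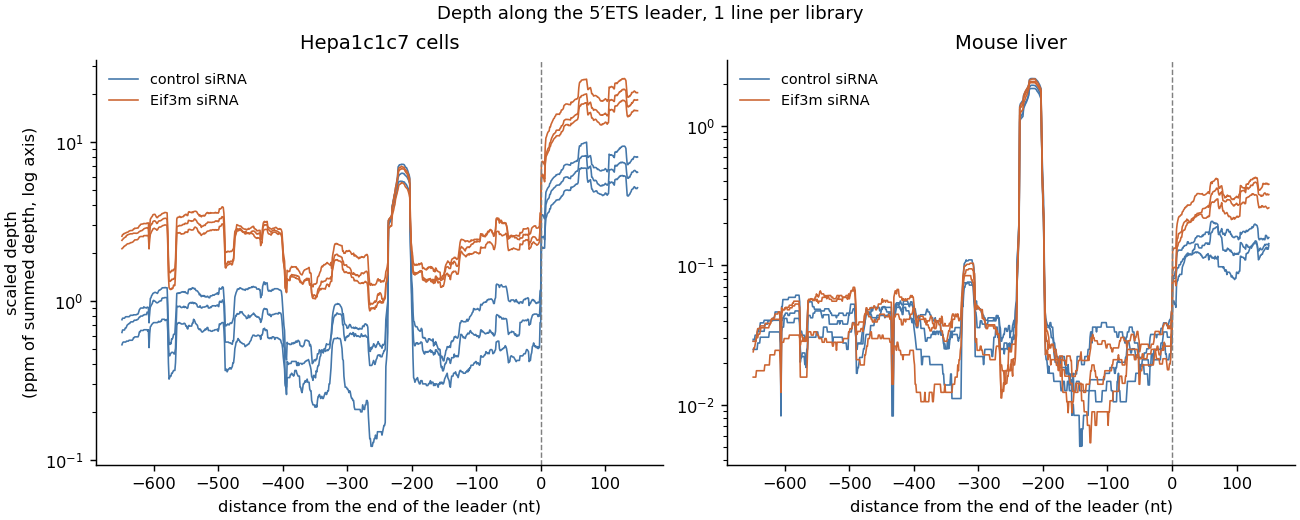
Scaled depth (ppm of summed depth, log axis) against the distance in nt from the end of the leader, with 1 line per library, for Hepa1c1c7 cells on the left and mouse liver on the right; the dashed line marks the end of the leader and 150 nt of the rest of the 5′ETS follow it. In cells the 3 Eif3m siRNA lines lie above the 3 control lines along the leader except at the spike, and in liver the lines of both groups cross up to the end of the leader and separate behind it.

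In Hepa1c1c7 cells the leader, scaled to summed depth, was more than 3 times as deep after Eif3m siRNA. Outside the spike, mean scaled depth was 0.457, 0.859 and 0.672 ppm in control replicates 1, 2 and 3. It was 2.43, 2.03 and 2.16 ppm in Eif3m siRNA replicates 1, 2 and 3. Each Eif3m siRNA library of the cells thus stood above each control library, and the groups did not overlap.

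The group means were 0.663 ± 0.201 ppm for control cells and 2.21 ± 0.20 ppm for Eif3m cells (SD, n = 3 each). The log2 difference was 1.78 ± 0.28 (SE), or 3.43-fold, with an exact two-sided permutation p of 0.1, the smallest that 3 against 3 libraries allows. It was smaller, 1.38, with median-of-ratios scaling, and ran from 1.53 to 1.99 when leaving out 1 library. Before scaling, the leader without the spike was covered by 64.1 to 154 reads per position in control cells and by 372 to 505 in Eif3m cells. At 614 of 614 positions every Eif3m siRNA library of the cells was higher than every control library, against 51.8% of all positions of the precursor. Neighbouring positions share reads, so these counts are not independent.

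In liver the leader did not show a difference of that kind. Outside the spike, mean scaled depth was 0.0352, 0.0328 and 0.0377 ppm in control replicates 1, 2 and 3. It was 0.0422, 0.0372 and 0.0252 ppm in Eif3m siRNA replicates 1, 2 and 3. Eif3m liver replicate 1 was the highest and replicate 3 the lowest of the 6 livers, so the groups overlapped.

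The liver means were 0.0352 ± 0.0024 ppm for controls and 0.0349 ± 0.0087 ppm after Eif3m siRNA (SD, n = 3 each). On the log2 scale they differed by -0.04 ± 0.23 (SE), with an exact permutation p of 0.9. Its sign turned without Eif3m liver replicate 3 (0.17) and without control liver replicate 3 (0.0055). Every Eif3m liver exceeded every control liver at 0 of 614 leader positions, against 49.2% of all positions. Every Eif3m liver lay below every control liver at 27 leader positions, all of them before the spike, or 4.40% of the leader against 18.1% of all positions.

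The spacer sequence behind the cleavage site was deeper after Eif3m siRNA in both systems. The rest of the 5′ETS stood at 5.52 ± 1.00 ppm (control) against 15.5 ± 2.4 ppm (Eif3m) for cells, and at 0.142 ± 0.020 ppm (control) against 0.263 ± 0.038 ppm (Eif3m) for livers (SD, n = 3 each). Its groups did not overlap at 3355 of 3355 positions in cells and at 3204 of 3355 positions in liver, each time with the Eif3m siRNA libraries higher. Over all positions of the precursor the share higher in this way was 51.8% in cells and 49.2% in liver. These counts are not independent either, because neighbouring positions share reads. In liver, then, depth differed after Eif3m siRNA on the downstream side of the cleavage site, while upstream of it no difference was detected at this depth.

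**Figure D2:**
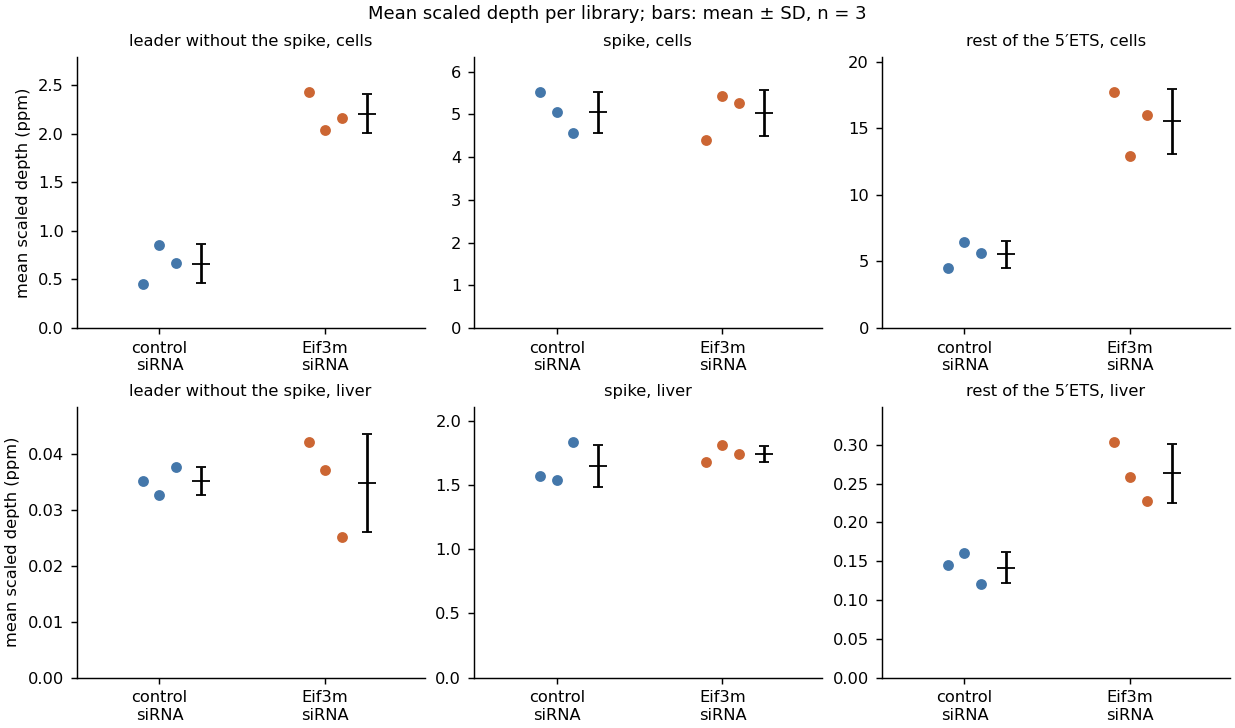
Mean scaled depth (ppm of summed depth, axes starting at 0) of the leader without the spike, of the spike and of the rest of the 5′ETS, with 1 point per library and the mean ± SD (n = 3) beside each group, cells above and liver below. The leader points separate in cells (0.457 to 0.859 against 2.03 to 2.43 ppm) and overlap in liver, the spike points overlap in both systems, and the rest of the 5′ETS separates in both.

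Relative to the other spacers, the leader lay above its controls after Eif3m siRNA in cells and below them in liver. The leader without the spike over the rest of the 5′ETS was 0.102, 0.133 and 0.120 in control cells and 0.137, 0.158 and 0.135 in Eif3m cells (replicates 1, 2 and 3). In liver the same ratio was 0.243, 0.204 and 0.313 in controls and 0.139, 0.144 and 0.111 after Eif3m siRNA. All 3 Eif3m siRNA libraries of the cells lay above their controls, and all 3 of the liver lay below theirs.

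The log2 difference of this ratio was 0.28 ± 0.13 (SE) in cells and -0.94 ± 0.21 (SE) in liver, and the exact permutation p was 0.1 in each system. The value in cells was 0.18 without control cell replicate 1, and with 10 reads added to each depth it was 0.19 and the groups overlapped (exact permutation p = 0.3). Liver minus cells, it was -1.22 ± 0.25 (SE). With labels exchanged within each system (400 assignments), the exact permutation p of that difference was 0.005, the smallest possible (adjusted p = 0.008 over 8 measures). With the spike kept in the leader, an alternative chosen after seeing the data, the difference was -0.74 ± 0.23 (SE) and did not pass (exact permutation adjusted p = 0.11), and the value in cells turned to -0.10.

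The internal spacers gave the same directions. ITS1, between 18S and 5.8S, and ITS2, between 5.8S and 28S, are cut out later in maturation. As a ratio to ITS1 depth, the leader without the spike stood at 0.155 ± 0.022 (control) against 0.194 ± 0.019 (Eif3m) for cells, and at 0.210 ± 0.030 (control) against 0.125 ± 0.026 (Eif3m) for livers (SD, n = 3 each). Over ITS2 it stood at 0.0872 ± 0.0133 and 0.115 ± 0.010 in cells and at 0.0938 ± 0.0181 and 0.0666 ± 0.0114 in liver (control, then Eif3m siRNA). Groups did not overlap in any of these 4 comparisons with the main settings. They did overlap over ITS1 in cells with 10 reads added, and over ITS2 in liver with median depths (exact permutation p = 0.2 for each).

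Liver minus cells, the log2 change was -1.09 ± 0.26 (SE) over ITS1 and -0.89 ± 0.27 (SE) over ITS2. The exact permutation p was 0.005 for each (adjusted p = 0.008). These ratios share the leader's values, so they are not independent of each other. The leader over summed depth differed by -1.82 ± 0.36 (SE) between systems, with an exact permutation p of 0.045 that did not pass after adjustment (0.06). Without Eif3m liver replicate 1 it was -1.98 and passed (exact permutation adjusted p = 0.04). Averaged over both systems, 0 of 8 measures passed the exact permutation test with the main settings, and 0 had an unadjusted p under 0.05.

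The step at the cleavage site also lay on opposite sides of its controls. Depth in the first 50 nt behind the leader was 8.67, 5.96 and 6.84 times that of its last 50 nt in control cells, and 5.07, 4.60 and 4.44 times in Eif3m cells. In liver the ratio was 6.25, 4.52 and 3.46 in controls and 8.13, 8.43 and 8.28 after Eif3m siRNA. The step was thus lower in each Eif3m siRNA library of the cells than in any of their controls. It was higher in each Eif3m liver than in any control liver. The last 50 nt belong to the leader, so this ratio shares values with the leader ratios above. Log2 differences were -0.59 ± 0.17 (SE) in cells and 0.85 ± 0.25 (SE) in liver. Their difference was 1.43 ± 0.30 (SE; exact permutation p = 0.005, adjusted p = 0.008).

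**Figure D3:**
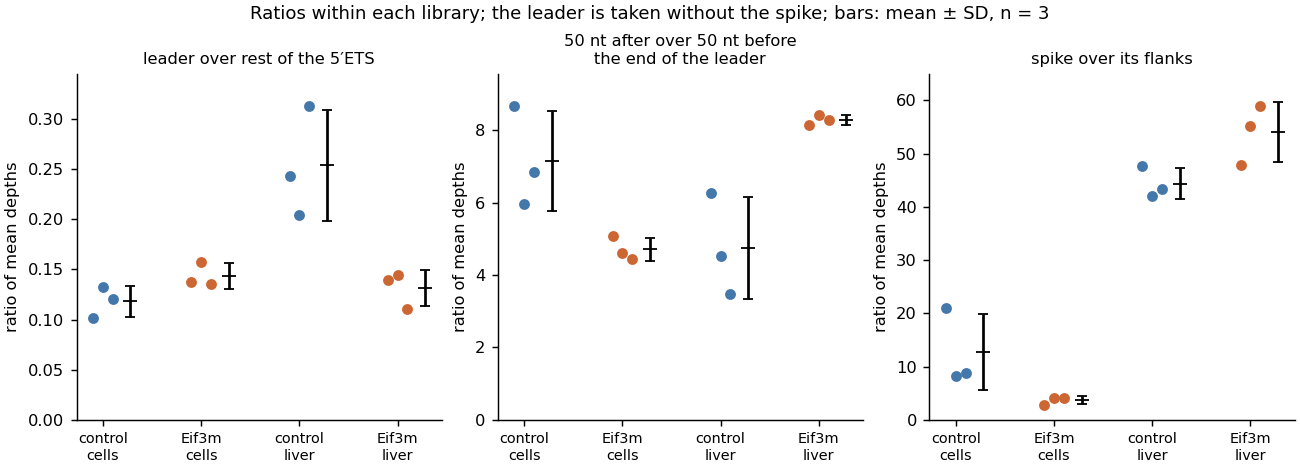
Ratios of mean depths within each library (axes starting at 0) for the leader without the spike over the rest of the 5′ETS, the 50 nt behind the leader over its last 50 nt, and the spike over its flanks, with 1 point per library and the mean ± SD (n = 3) beside each group. In each panel the Eif3m siRNA points lie on opposite sides of their controls in cells and in liver.

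Along the leader, the change in cells was spread over its whole length. limma was fitted on 50-nt windows of the whole precursor, with the spike as a feature of its own, on log2(depth in reads + 1) with each library's depth scaled to the mean summed depth of its system (cells or livers), so that changes of low windows are understated. In cells 13 of 13 leader windows were called higher (Benjamini-Hochberg adjusted p between 3.98e-12 and 3.68e-07) and 0 lower, against 51.3% of all windows called higher and 15.2% lower. Their median log2 change was 1.78, beside 0.41 over all windows and 1.50 over the 67 windows of the rest of the 5′ETS. Windows share reads and move together within a library, so these limma p-values are smaller than 3 libraries per group warrant. The split over all windows depended on scaling, with 138 higher and 41 lower here, 139 and 0 after scaling to the depth of the mature rRNA regions, and 134 and 128 after median-of-ratios scaling, whereas 13 of 13 leader windows were higher in each.

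The largest changes in cells lay near the 3′ end, at 1.93 ± 0.27 (SE) for positions 501 to 550 and 1.90 ± 0.28 (SE) for 551 to 600. The smallest lay around the middle, at 1.35 ± 0.26 (SE) for 401 to 450, where 14 positions next to the spike remained, and 1.58 ± 0.26 (SE) for 301 to 350. The first window, at the 5′ end of the reference, changed by 1.84 ± 0.28 (SE) and the last by 1.83 ± 0.28 (SE). For each of these windows limma's adjusted p was below the threshold of 0.05.

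In liver 12 of the 13 windows were deep enough to test (a mean depth of at least 10 reads), and limma called 0 of them. None had an unadjusted p under 0.05, the lowest being 0.36, whereas 52.1% of all windows were called higher and 18% lower (136 and 47 windows, or 83 and 99 after median-of-ratios scaling, with 0 leader windows in either). The median log2 change of the tested leader windows was -0.02, beside 0.19 over all windows. In the rest of the 5′ETS 66 of 67 windows were called higher, with a median of 0.88 and a range of 0.53 to 1.22.

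The window values of the liver leader scattered around 0. The largest were 0.25 ± 0.28 (SE) for positions 101 to 150 and 0.19 ± 0.27 (SE) for 301 to 350, and the smallest were -0.26 ± 0.28 (SE) for 201 to 250 and -0.25 ± 0.30 (SE) for 351 to 400. The first window stood at -0.19 ± 0.29 (SE) and the last at -0.02 ± 0.30 (SE). The difference between systems was negative and called by limma in 13 of 13 leader windows, against 26.8% of all windows called lower and 12.6% higher in that comparison (72 and 34 windows, 111 and 29 with mature-region scaling, 42 and 110 with median-of-ratios scaling). In the rest of the 5′ETS 20 of 67 windows were called lower. The mean of both systems was called higher in 13 of 13 windows, against 56.5% of all windows higher and 20.1% lower, but it joins 1.78 with -0.02 and describes neither system. Both counts of 13 include positions 501 to 550, a window too shallow to test in liver alone. It passed the depth filter only through the cells. Its mean depth was 7.96 (control) and 9.81 (Eif3m) reads in livers, against 86.8 and 366 reads in cells.

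**Figure D4:**
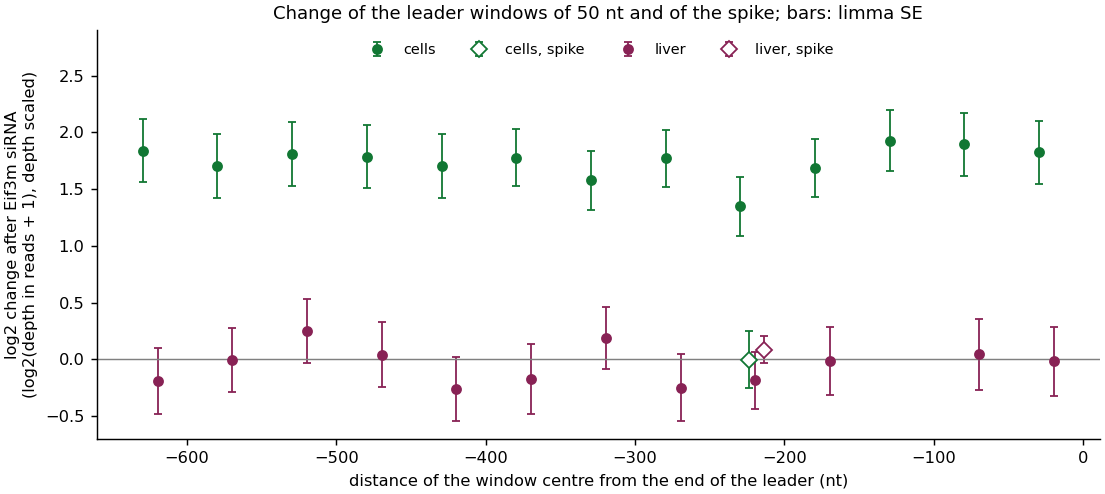
Log2 change after Eif3m siRNA, on the scale log2(depth in reads + 1) with depths scaled to the mean summed depth of each system, of the 50-nt leader windows (filled circles) and of the spike (open diamonds) against the distance of their centre from the end of the leader in nt, for cells (green) and liver (purple), with bars for limma's SE and the systems' symbols shifted slightly sideways; the window at 501 to 550 was too shallow to test in liver. The 13 windows of the cells lie between 1.35 and 1.93 and the 12 of the liver between -0.26 and 0.25, and the spike lies near 0 in both.

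In group means, the shape of the leader profile was alike with both siRNAs and less alike between systems. In control cells the deepest full window was 101 to 150, at 0.904 ppm, and the shallowest was 251 to 300, at 0.413 ppm. The first 5 windows averaged 0.824 ppm, the 3 after them 0.471 ppm and the last 3 before the cleavage site 0.664 ppm. After Eif3m siRNA the deepest and shallowest windows of the cells were the same, at 3.13 and 1.40 ppm, and the same 3 averages were 2.76, 1.47 and 2.36 ppm. The profile in cells was thus high at the start, low in the middle and higher again towards the cut.

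In control livers the deepest full window was 301 to 350, at 0.0489 ppm, and the shallowest was 501 to 550, at 0.0181 ppm. The first 5 windows averaged 0.0403 ppm, the next 3 averaged 0.0378 ppm and the last 3 averaged 0.0221 ppm. After Eif3m siRNA these averages were 0.0408, 0.0377 and 0.0214 ppm, again with the highest value at 301 to 350 (0.0556 ppm) and the lowest at 501 to 550 (0.0164 ppm). In livers the average of the last 3 windows thus lay below that of the middle 3, whereas in cells it lay above. Within those last 3 the liver means did rise, reaching 0.0260 ppm (control) and 0.0257 ppm (Eif3m) at 601 to 650. Control liver replicate 2 went the other way, from 0.0296 ppm at 501 to 550 to 0.0241 ppm at 601 to 650.

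Across the 12 full windows, Pearson's r between group means was 0.97 for control against Eif3m cells and 0.92 for control against Eif3m livers. It was 0.38 for control cells against control livers. Spearman's coefficients, in the same order, were 0.958, 0.965 and 0.52. Windows of 1 library share its depth and neighbouring windows share reads, so these values are descriptions. The part of the leader before the spike over the part after it was 1.13 ± 0.07 (control) and 1.05 ± 0.05 (Eif3m) for cells. For livers it was 1.72 ± 0.59 (control) and 1.70 ± 0.51 (Eif3m) (SD, n = 3 each). By replicate the livers gave 2.33, 1.14 and 1.70 (control) and 1.62, 2.24 and 1.24 (Eif3m). Control liver replicate 2 lay within the range of the cells, 0.998 to 1.18. On the log2 scale the siRNAs differed here by -0.10 ± 0.07 (SE) in cells and by -0.0028 ± 0.39 (SE) in liver, with exact permutation p-values of 0.3 and 1.

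Several local features, picked after the profile was seen, recurred in the libraries. Depth was already high at the first base: position 1 held 81.1% to 88.4% of the mean depth of the first 50 nt in cells and 62.0% to 81.1% in livers. For the falls and rises that follow, 1 read was added to each 10-nt mean, which pulls ratios of shallow stretches towards 1. Averaged over both systems, the sharpest lasting fall outside the spike lay at position 74. There the mean of the next 10 nt was 0.44 to 0.59 of that of the 10 nt before. Depth rose again at position 85 by 1.34- to 2.09-fold. A second fall lay at position 161 (0.46 to 0.80 of the depth before it), with a rise at position 175 by 1.12- to 1.54-fold. In livers alone the fall at position 345, behind a small peak, was sharper, with a mean ratio of 0.46 against 0.54 at position 74. Both troughs were present with both siRNAs in both systems.

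A smaller peak stood at positions 325 to 344. Its mean depth was 1.65 ± 0.35 times that of the 20 nt on either side in control cells and 1.23 ± 0.05 times in Eif3m cells, and for livers it was 2.80 ± 1.06 times (control) and 2.63 ± 0.92 times (Eif3m) (SD, n = 3 each). The depth above its flanks was 38.5 to 50.7 reads in control cells and 63.5 to 67.9 reads in Eif3m cells. In livers it was 15.4 to 36.6 reads in controls and 27.1 to 32.2 reads after Eif3m siRNA. The peak lies inside the deepest full liver window, 301 to 350.

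A pair of narrow notches separated livers from cells. At position 44, depth was 0.31 to 0.61 of the lower of the depths 5 nt to either side in the 6 livers, against 0.94 to 1.06 in the 6 libraries of cells (1 read added to each depth). At positions 216 to 218 the lowest point was position 216, with 0.24 to 0.57 in livers and 0.88 to 0.94 in cells. In livers these ratios rest on few reads, with depths of 3 to 13 at position 44 and 3 to 19 at position 216. In cells those depths were 87 to 609 and 80 to 503 reads. Neither range of ratios overlapped between systems, and both notches were present with either siRNA. They were chosen after their values were seen, and their cause was not tested.

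The spike did not show the leader's difference in cells. Its mean scaled depth was 5.52, 5.05 and 4.57 ppm in control cells and 4.41, 5.42 and 5.28 ppm in Eif3m cells (replicates 1, 2 and 3). In liver it was 1.57, 1.54 and 1.83 ppm in controls and 1.68, 1.81 and 1.74 ppm after Eif3m siRNA. The groups overlapped in both systems.

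Between siRNAs, the spike differed on the log2 scale by -0.0051 ± 0.12 (SE) in cells and by 0.08 ± 0.09 (SE) in liver, with exact permutation p-values of 1 and 0.4. limma, with the spike as a feature among the windows, gave -0.01 (adjusted p = 0.98) and 0.08 (adjusted p = 0.56). The sign and size depend on the scaling. In cells the value was 0.08 with libraries scaled to the depth of the mature regions and -0.41 with median-of-ratios scaling. In liver it was 0.08 and -0.09. With median-of-ratios scaling each Eif3m library of the cells lay below each control library (exact permutation p = 0.1, adjusted p = 0.11). Averaged over both systems that scaling gave -0.25 (exact permutation p = 0.025, adjusted p = 0.2). With libraries scaled to summed depth, every Eif3m siRNA library of the cells was higher than every control library at 2 of 36 spike positions, against 51.8% of all positions. In liver this held at 0 of 36, against 49.2%. On that scale every Eif3m siRNA library was lower than every control library at 0 of 36 spike positions in each system. The share over all positions was 17.7% in cells and 18.1% in liver.

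The outline of the spike, whose bounds were chosen with these profiles known, was shared by the libraries. In 12 of 12 the largest single gain in depth within 30 nt of the spike lay at position 414 and the largest single loss at position 448. Just outside, at position 413, depth was 71 to 361 reads, and just inside, at 414, it was 402 to 816 reads. At the other edge, position 449 held 146 to 497 reads and position 450 held 95 to 431 reads. Positions at 50% of the peak depth or more began at 414 or 420 and ended at 447 or 448. The peak lay between positions 431 and 435.

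Before scaling, the height of the spike was alike in both systems. Its highest depth was 1010, 1134 and 966 reads in control cells and 1151, 1282 and 1194 reads in Eif3m cells. For livers it was 927, 666 and 1296 reads (control) and 1273, 1211 and 1182 reads (Eif3m). The 50 nt on either side averaged 36.8 to 109 reads (control) and 224 to 331 reads (Eif3m) for cells, and 13.2 to 25.2 reads (control) and 16.8 to 22.0 reads (Eif3m) for livers. Scaled to summed depth, control cells exceeded control livers 3.06-fold at the spike and 18.3-fold over the leader around it. That gap between cells and livers was 38.8-fold for the rest of the 5′ETS.

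**Figure D5:**
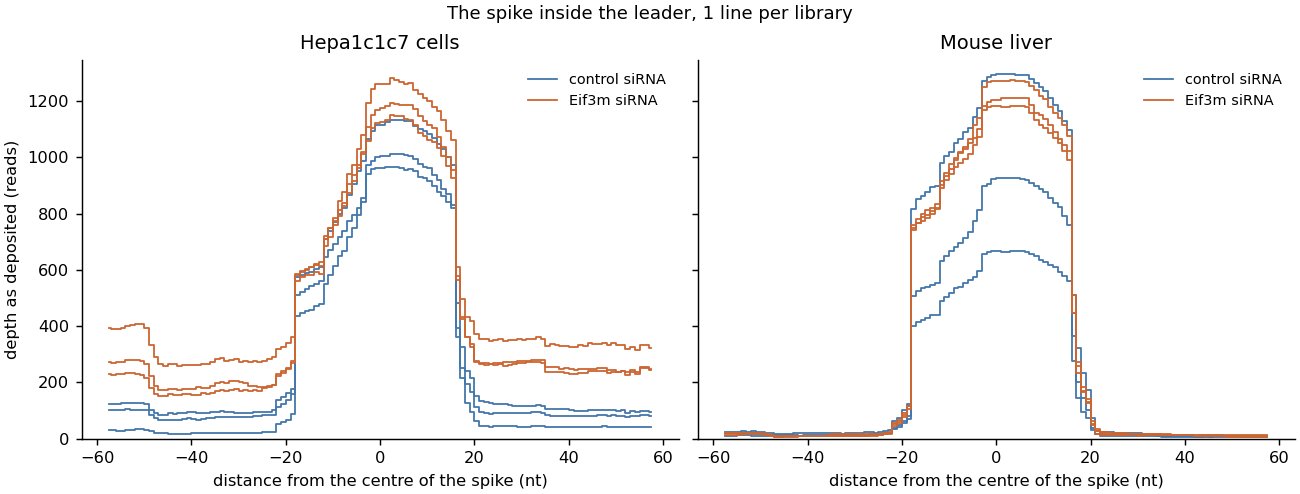
Depth as deposited (reads, linear axes starting at 0) against the distance in nt from the centre of the spike, with 1 line per library, cells on the left and liver on the right. The spike has the same edges and an asymmetric outline in all 12 libraries and peaks between 666 and 1296 reads, while depth on either side is higher in Eif3m cells than in control cells.

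The spike made up a smaller share of the leader in Eif3m cells than in control cells. It held 31.9% ± 8.4 (control) and 11.9% ± 2.0 (Eif3m) of the leader's summed depth in cells, and 73.3% ± 0.8 (control) and 74.7% ± 5.1 (Eif3m) in livers (SD, n = 3 each). The spike over its flanks was 21.0, 8.28 and 8.84 in control cells and 2.78, 4.14 and 4.15 in Eif3m cells. It was 47.7, 42.1 and 43.3 in control livers and 47.8, 55.2 and 59.0 in Eif3m livers. The groups did not overlap in either system, with opposite directions. In liver the separation was slight, and it was lost with the spike narrowed by 5 nt or with flanks of 20 nt (exact permutation p = 0.2 for each). The flanks are leader positions, so this ratio shares values with the leader.

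The log2 difference of the spike over its flanks was -1.67 ± 0.47 (SE) in cells and 0.28 ± 0.10 (SE) in liver. Liver minus cells, it was 1.95 ± 0.49 (SE; exact permutation p = 0.005, adjusted p = 0.008). Control cell replicate 1 had the highest ratio of the cells, and without it the change in cells was -1.24. With the flanks' depth subtracted from the spike, an alternative chosen after seeing the data, the spike over summed depth differed by -0.34 ± 0.21 (SE) in cells and 0.09 ± 0.09 (SE) in liver (exact permutation adjusted p = 0.23 and 0.53).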

How the data were processed

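The authors deposited 1 table of coverage signal, the whole number of reads over each position of 1 reference sequence in each library, not scaled to library size. Per the submitters' processing notes, the tools include BWA 0.7.12 and SAMtools 1.3; options, the name of the reference, read length and the handling of duplicate and multiply mapped reads are not given in the sources used. Columns were matched to samples by the code in the title. No sequence of the leader was used.

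Depths were averaged per region and divided by summed depth or by another region. Spacer edges came from steps in the mean profile (20 nt on each side). Exact two-sided permutation tests were run on differences of mean log2 values, with Benjamini-Hochberg adjustment over 8 measures. Windows of 50 nt (269 features with the spike; mean depth of at least 10 reads) were fitted with limma 3.58.1 (lmFit, eBayes with trend, R 4.3.3) and tested on simulated data. Windows named are the first, the last, the spike and the 2 largest and 2 smallest changes per system. Alternatives were scaling, pseudocounts, region bounds, medians, window length, depth filter, trend, replicate block and leaving out each library. Members, measures and windows were chosen with earlier results of these data known.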

Additional observations from a re-analysis of the deposited data

Results flagged for a closer look

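In 5 measures and 13 windows, the change after Eif3m siRNA differed between liver and cells. All 5 are ratios that include leader positions, and the 13 windows are the leader's own, so these results are not independent of each other. By the exact permutation test, liver minus cells was -1.22 (log2) for the leader without the spike over the rest of the 5′ETS, -1.09 over ITS1, -0.89 over ITS2, 1.95 for the spike over its flanks and 1.43 for the step at the end of the leader, each with an adjusted p of 0.008. In each of these 5 measures, with the main settings, all 3 Eif3m siRNA libraries of the cells lay on one side of their controls and all 3 of the liver on the other. Some of these separations were lost under alternative settings. By limma, 13 of 13 leader windows were lower in liver minus cells, from -2.03 at positions 1 to 50 to -1.39 at 301 to 350, against 26.8% of all windows called lower in this comparison. That count includes positions 501 to 550, too shallow to test in liver alone, which passed the depth filter only through the cells. Cells and livers also differed in RNA fraction, dose and time, and these cannot be told apart here.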

How the results depend on the processing

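Liver leader values rest on the fewest reads. The SE of their log2 difference was no larger than in cells (0.23 against 0.28). Eif3m livers nevertheless varied more, relative to their mean, than Eif3m cells. Each main result was compared with its value under each alternative other than leaving out a library. Of these comparisons, 229 kept direction and side of the threshold or, for windows called, a similar share. Among the others 7 turned sign, 2 came to pass and 6 no longer passed. The share of leader windows called kept its value in cells (13), liver (0) and liver minus cells (13) under every alternative run; over both systems 12 of 13 passed with median-of-ratios scaling. The leader over summed depth, liver minus cells, came to pass with 10 reads added (-1.82) and with median-of-ratios scaling (-1.60), and ran from -2.03 to -1.58 when leaving out 1 library, passing without Eif3m liver replicate 1 (-1.98). Same-numbered libraries did not deviate together (correlations of -0.76, -0.72 and -0.02 in cells and 0.26, -0.15 and 0.32 in liver), so numbers were not taken as pairs. With the replicate block (sign flips, smallest exact p = 0.03125) the adjusted p was 0.05 for liver minus cells of the leader over the rest of the 5′ETS (-1.22), ITS1 (-1.09) and ITS2 (-0.89), the spike over its flanks (1.95) and the end step (1.43), which then did not pass. With the spike kept in, the leader over the rest of the 5′ETS was -0.10 in cells and -0.74 for liver minus cells. Values near 0 turned sign: the leader before over after the spike in liver with 1 read (0.0049) or 10 reads (0.030) added, the spike in cells with mature-region scaling (0.080, also as a window), and the spike with median-of-ratios scaling in liver (-0.092, also as a window) and over both systems (-0.25; -0.13 with its flanks subtracted). Leaving out 1 library gave -0.074 to 0.088 for the spike in cells (also as a window), -0.0044 to 0.17 for the spike, liver minus cells, -0.20 to 0.17 for the liver leader, -0.11 to 0.031 for the leader over ITS2 over both systems, and, for the leader before over after the spike, -0.27 to 0.24 in liver, -0.18 to 0.073 over both and -0.17 to 0.34 for liver minus cells. In liver windows it gave -0.34 to 0.077 (1 to 50), -0.17 to 0.13 (601 to 650) and -0.52 to 0.039 (201 to 250). Counts over all windows moved too. Lower calls in cells went from 41 to 2 without eBayes trend and from 8 to 54 without 1 library, and in liver from 47 to 28 without trend. Lower calls in liver minus cells went from 72 to 105 with pseudocount 10, to 48 with the replicate block in limma and from 40 to 103 without 1 library.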
